A study of Mus musculus with 4 samples.

Results

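The mouse major histocompatibility complex (MHC) was examined as 1 window of 5 Mb, chr17:33600000-38600000 (mm10), in CUT&RUN peak lists from medullary thymic epithelial cells (mTEC). Every peak whose midpoint lay in the window was taken from each of 4 lists, and intervals that shared 1 bp or more were merged. This gave 640 regions of the 259773 merged regions in the genome. The study had 4 libraries, 2 of mTEClo and 2 of mTEChi, from thymi of 4 to 5 week old mice that were wild type for Trp53 (genotype Trp53-WT). The input is given as 500000 cells per condition, and whether this means per library is not stated. Cells were enriched for EpCAM, an epithelial surface protein, and then sorted. By convention, mTEClo and mTEChi are separated by low and high surface MHC class II; whether this sort used it is not stated in the labels. The antibody is p53 in the sample titles but BAF155, part of the SWI/SNF chromatin remodelling complex, in the protocol text, so the target of these peaks is not settled. No control library was analysed here. CUT&RUN releases DNA beside an antibody-bound protein, and a peak is a place where the authors' caller found these fragments concentrated.

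The MHC holds the class I genes, whose products show peptides of the cell's own proteins to CD8 T cells, and the class II genes, whose products show peptides from the endocytic route to CD4 T cells. Thymic epithelial cells use both to select developing T cells, and mTEC show them a broad range of self antigens. Between the class II and class I genes lies the class III segment, with complement, cytokine and many housekeeping genes. At the distal end lie nonclassical class I genes of the H2-M group and a cluster of olfactory receptor genes. In class II promoters an X box and a Y box stand near each other; the Y box contains CCAAT, and part of the X box resembles the cyclic AMP response element, whose half-site is TGACG.

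The sequences below are shown because their genes are, among those named by the selection rule, the 8 with the best-ranked promoter peaks in all 4 libraries. Rab11b, a small GTPase gene outside that rule, also had a strong promoter peak. Each runs 5′ to 3′ along the gene's strand, from 250 bases before to 50 bases after a start listed in RefSeq (GRCm38.p6). Capitals mark matches on either strand. The Y box motif searched was CCAAT, which reads ATTGG on the other strand. The cyclic AMP response element half-site searched was TGACG, the Sp box was GGGCGG and the Ets core was CCGGAAG.
Zbtb22, chr17:33915926-33916225, plus strand: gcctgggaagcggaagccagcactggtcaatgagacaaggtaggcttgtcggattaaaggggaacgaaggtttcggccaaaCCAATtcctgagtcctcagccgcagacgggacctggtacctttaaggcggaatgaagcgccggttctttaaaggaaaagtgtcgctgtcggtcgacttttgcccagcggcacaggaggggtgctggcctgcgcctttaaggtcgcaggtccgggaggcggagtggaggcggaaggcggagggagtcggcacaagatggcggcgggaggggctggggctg
H2-Aa, chr17:34287774-34288073, minus strand: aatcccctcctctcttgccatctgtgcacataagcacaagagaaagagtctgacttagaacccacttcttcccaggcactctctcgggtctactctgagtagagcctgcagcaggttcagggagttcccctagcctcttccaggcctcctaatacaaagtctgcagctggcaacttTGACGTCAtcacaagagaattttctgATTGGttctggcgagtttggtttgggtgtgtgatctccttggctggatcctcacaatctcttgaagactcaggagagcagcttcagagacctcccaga
H2-DMb2, chr17:34144999-34145298, plus strand: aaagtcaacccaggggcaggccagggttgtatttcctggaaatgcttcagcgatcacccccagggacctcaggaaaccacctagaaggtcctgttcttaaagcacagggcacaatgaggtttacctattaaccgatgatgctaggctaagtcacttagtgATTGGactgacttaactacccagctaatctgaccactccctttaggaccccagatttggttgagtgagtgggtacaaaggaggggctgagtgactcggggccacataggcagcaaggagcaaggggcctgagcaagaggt
H2-M2, chr17:37483505-37483804, minus strand: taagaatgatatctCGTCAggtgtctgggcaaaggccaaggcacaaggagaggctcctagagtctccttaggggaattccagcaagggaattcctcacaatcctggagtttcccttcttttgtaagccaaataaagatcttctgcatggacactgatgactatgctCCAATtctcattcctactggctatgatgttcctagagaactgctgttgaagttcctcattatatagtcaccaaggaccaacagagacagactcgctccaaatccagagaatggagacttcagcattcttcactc
Neu1, chr17:34931003-34931302, plus strand: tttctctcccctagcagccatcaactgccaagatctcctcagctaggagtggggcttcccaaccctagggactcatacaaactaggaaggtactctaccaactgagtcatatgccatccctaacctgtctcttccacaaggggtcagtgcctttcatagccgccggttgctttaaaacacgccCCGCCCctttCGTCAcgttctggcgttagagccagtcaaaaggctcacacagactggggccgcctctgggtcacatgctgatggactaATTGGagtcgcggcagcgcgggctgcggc
H2-DMb1, chr17:34152941-34153240, plus strand: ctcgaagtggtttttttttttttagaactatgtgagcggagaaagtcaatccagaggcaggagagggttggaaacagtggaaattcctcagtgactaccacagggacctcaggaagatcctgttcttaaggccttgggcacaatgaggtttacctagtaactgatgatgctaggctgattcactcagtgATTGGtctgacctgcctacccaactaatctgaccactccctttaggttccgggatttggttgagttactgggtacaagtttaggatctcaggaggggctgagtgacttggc
Kifc1, chr17:33890584-33890883, minus strand: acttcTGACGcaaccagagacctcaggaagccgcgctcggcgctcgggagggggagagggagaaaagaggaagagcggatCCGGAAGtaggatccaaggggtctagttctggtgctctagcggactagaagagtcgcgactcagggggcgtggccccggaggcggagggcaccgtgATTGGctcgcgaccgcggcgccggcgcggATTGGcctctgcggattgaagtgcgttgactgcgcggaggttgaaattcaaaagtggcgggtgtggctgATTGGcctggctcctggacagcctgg
Atf6b, chr17:34646896-34647195, plus strand: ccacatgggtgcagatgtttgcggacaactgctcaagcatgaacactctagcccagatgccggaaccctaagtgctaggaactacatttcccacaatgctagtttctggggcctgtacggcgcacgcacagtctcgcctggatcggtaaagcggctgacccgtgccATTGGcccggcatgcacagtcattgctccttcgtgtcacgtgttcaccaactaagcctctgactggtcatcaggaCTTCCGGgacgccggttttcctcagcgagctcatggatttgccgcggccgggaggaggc

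All of these 8 windows hold CCAAT on 1 strand or the other, and 4 of them hold TGACG. H2-Aa encodes the alpha chain of I-A, a classical class II molecule. In its window, bases 177 to 184 are the palindrome TGACGTCA, which counts as TGACG on both strands, and bases 203 to 207 read ATTGG. Counted in the same way, the 4 H2-Aa summits lay at base 164 in mTEClo replicate 1, base 178 in mTEClo replicate 2, base 168 in mTEChi replicate 1 and base 154 in mTEChi replicate 2. All 4 were thus at or just upstream of the palindrome. H2-DMb1 and H2-DMb2 encode beta chains of H2-DM, which loads peptides onto class II molecules. Each of their windows holds 1 ATTGG, at bases 190 to 194 and 161 to 165. Summits fell at bases 109, 145, 125 and 47 in H2-DMb1 and at bases 124, 141, 122 and 158 in H2-DMb2, in the order mTEClo replicates 1 and 2, mTEChi replicates 1 and 2. This order is kept wherever 4 values are given below. The H2-DMb2 start used here lies inside the annotated gene interval.

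**Figure D1:**
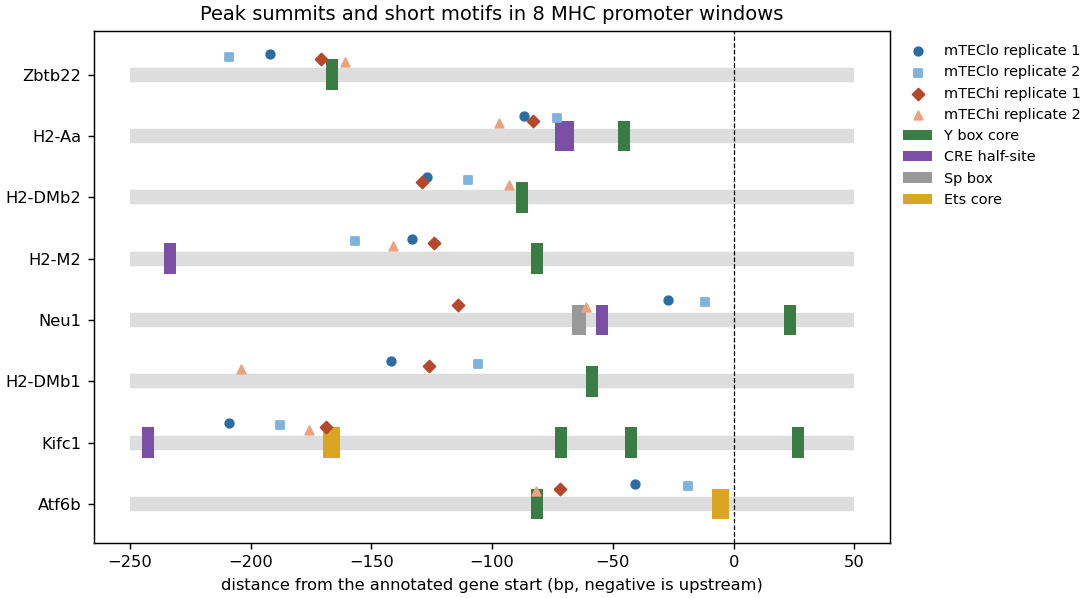
Horizontal axis: distance in bp from the start listed for each of 8 MHC genes; grey bars are the 300-base windows, coloured blocks are motif matches on either strand, and points are the 4 libraries' summits. In H2-Aa the 4 summits lie at or upstream of the cyclic AMP response element (CRE) half-sites and within 24 bp of each other.

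The 4 lists differed in length, with 89809, 69359, 73510 and 85308 peaks. Peak lists hold no read counts, so sequencing depth is unknown. The deposited score of a peak, a −log10 p-value or q-value from the authors' caller, was at least 2.00 in every list and was used only to rank peaks within a list; its size is not comparable between lists. Of 6 thymic epithelial marker genes, 6, 5, 6 and 6 had a summit within 5 kb of a gene end. Of 6 thymocyte genes this held for 4, 3, 1 and 5, and of 6 B-cell and myeloid genes for 4, 4, 3 and 5. Among all 21627 protein-coding genes it held for 14975, 12902, 12921 and 13872. A peak near a marker is not its expression, and the part of other cell types in the MHC peaks was not tested.

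In the MHC window lay 288 and 217 peaks for mTEClo and 236 and 243 for mTEChi. That is 0.321%, 0.313%, 0.321% and 0.285% of each list. As a share of the list, mTEChi minus mTEClo was −0.0138 percentage points, with means of 0.317% ± 0.00553 in mTEClo and 0.303% ± 0.0256 in mTEChi (SD, n = 2 each; p = 1, exact permutation test, two-sided). At 2 against 2, no p below 0.333 is possible. The states overlapped, and no difference beyond the spread between libraries was detectable.

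Against the 17 other windows of equal length on chromosome 17, the MHC had more peaks than the median window in every library. The ratio was 1.52, 1.44, 1.63 and 1.28, with a geometric mean of 1.46 (higher in 4 of 4 libraries; two-sided exact sign-flip test, p = 0.125, the smallest that 4 libraries allow). Its rank among the 18 windows was 5, 5, 3 and 5, so other windows held more peaks. The MHC also held the most protein-coding genes, 222, and had the fewest peaks per gene of the 18 windows, 1.11 on average. Over the 18 windows, mean peak number and gene number had Pearson's r = 0.656 and Spearman's rho = 0.538; the windows come from the same 4 libraries. Without the MHC, r was 0.711 and rho 0.485 over 17 windows.

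MHC peaks lay nearer to genes and recurred between libraries more often than those of the other windows. Of its peaks, 42.0%, 31.8%, 39.8% and 38.3% had the summit within 1 kb of a gene end, counting protein-coding genes (Wilson 95% intervals 36.5 to 47.8, 26.0 to 38.3, 33.8 to 46.2 and 32.4 to 44.5, counting error only). In the rest of each list the share was 12.6%, 11.4%, 11.4% and 9.86%. The MHC ranked first of the 18 windows in all 4 libraries, on average 29.0 ± 4.18 percentage points above the median of the others (SD, n = 4; exact sign-flip test, p = 0.125). Peaks that overlapped a peak of another library made up 50.3%, 54.4%, 59.3% and 50.6% of the MHC peaks, against 31.5%, 32.4%, 31.8% and 25.7% in the rest of each list. Here too the MHC ranked first in every library, 24.5 ± 4.35 points above the median window (SD, n = 4; exact sign-flip test, p = 0.125). The 4 overlap values are not independent, since each was computed against the other libraries, which the test does not take into account. Between the states, neither share differed beyond the spread: mTEChi minus mTEClo was 2.15 points for peaks near gene ends (exact permutation test, p = 1) and 2.61 points for overlap (exact permutation test, p = 0.667). The window next in gene number (chr17:23600000-28600000, 179 genes) came closer to the MHC than the median window did. Its shares were 27.6%, 23.1%, 36.4% and 22.2% near gene ends and 40.9%, 45.5%, 55.4% and 37.6% for overlap. Whether gene number accounts for the MHC shares was not tested.

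**Figure D2:**
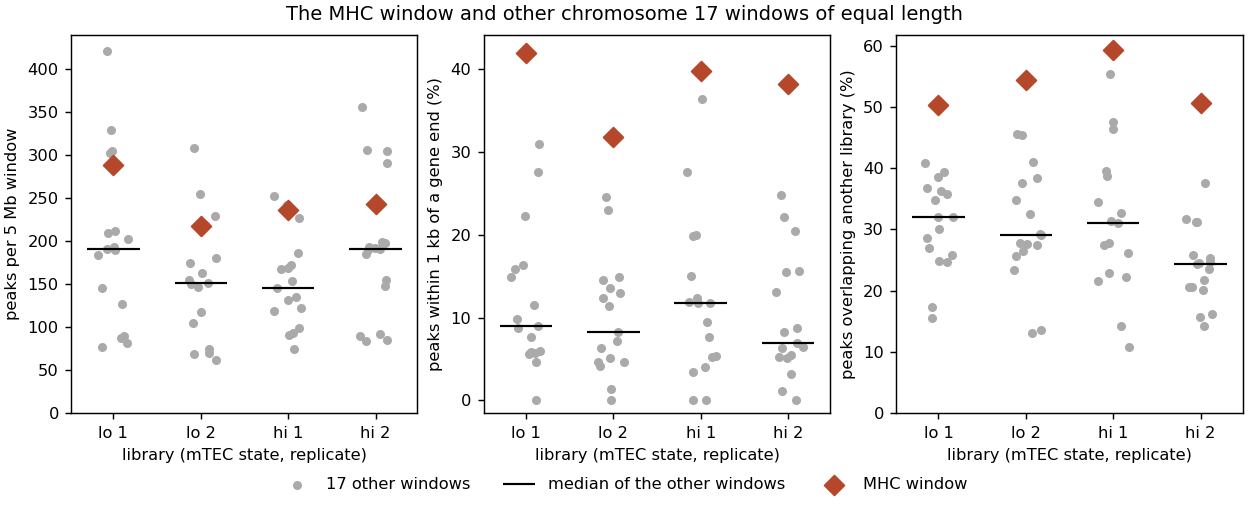
Each panel shows, for the 4 libraries (lo, mTEClo; hi, mTEChi), the MHC window (diamonds) and 17 other 5 Mb windows of chromosome 17 (grey points, median as a line); the vertical axes are peaks per window, percent of peaks within 1 kb of a gene end and percent overlapping another library. The MHC is 5th, 5th, 3rd and 5th in peak number, and first in both shares in every library.

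Of the 640 MHC regions, 58 (9.06%) held a peak in all 4 libraries, against 1.99% of all merged regions. A single library supplied 458 regions (71.6%), and 43 were found in 3 libraries. The 58 shared regions were 314 to 770 bp long, with a median of 368.5 bp, and their summits spanned a median of 67.5 bp across libraries. A gene end lay within 1 kb of 37 of the 58 (63.8%, Wilson 95% interval 50.9 to 74.9), compared with 25.1% of the regions from a single library. The share was higher in the MHC both near genes and farther away. Among regions within 1 kb of a gene end, 18.5% of 200 in the MHC and 12.9% of 19985 in the rest of the genome were shared by all 4 libraries. Farther away, these shares were 4.77% of 440 and 1.06% of 239148. In the rest of chromosome 17 they were 13.6% of 822 near gene ends and 1.19% of 8854 farther away.

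The shared regions were not spread evenly. The class II segment from H2-Oa to H2-Eb2, chr17:34092379-34341410, has 14 genes in 0.249 Mb and held 15 of the 58, or 60.2 per Mb. Its peak counts were 38, 33, 41 and 35, so both states had peaks there in like number and overlapped. The extended class II and H2-K segment before it held 12 shared regions, 24.4 per Mb. Class III, with 62 genes, held 10, or 10.8 per Mb, and the class I framework and H2-T segment held 15, or 18.8 per Mb. From the start of the H2-D1 gene interval to H2-Q10, none of 19 regions was shared. The shared region at the H2-D1 promoter, with summits 113 to 227 bp before that start, was counted in class III. Many H2-Q genes have near-identical copies, so the lack of shared regions in this segment is less certain. The distal 1.53 Mb, where 46 of 51 genes are olfactory receptors, held 3 shared regions, 1.97 per Mb. By the nearest gene, 13 of the 58 shared regions belonged to class II genes, 8 of them to classical ones.

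Among the strongest 1% of each list, 16, 12, 15 and 18 peaks lay in the MHC, and 7 of these lay in the class II segment in every library. The states overlapped.

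**Figure D3:**
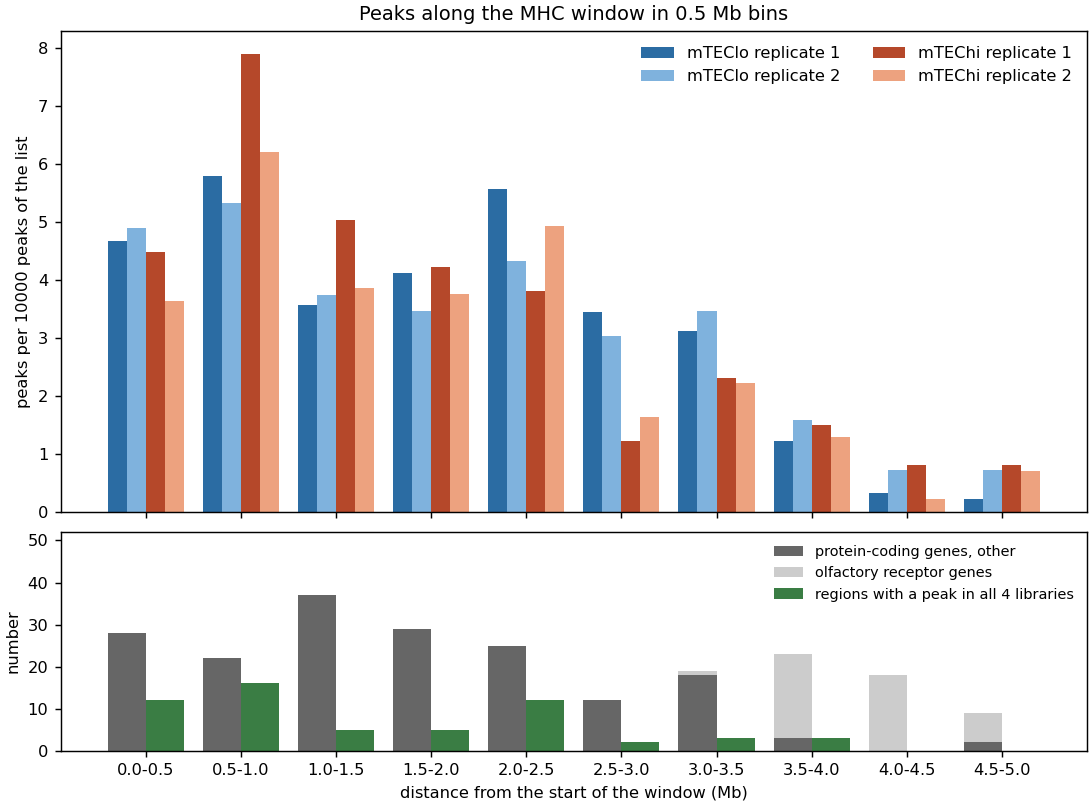
The horizontal axis is the distance in Mb from the window's proximal end. The upper panel gives peaks per 10000 peaks of each list in 0.5 Mb bins, and the lower panel the protein-coding genes and the regions with a peak in all 4 libraries; the second bin, which holds most class II genes, has the most shared regions, 16.

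Along the window in 10 bins of 0.5 Mb, the second bin (chr17:34100000-34600000, from Brd2 to Ager) held most peaks, 52, 37, 58 and 53. Per 10000 peaks of the list this was 5.79, 5.33, 7.89 and 6.21. Both mTEChi values exceeded both mTEClo values in this bin and in the next, 2 of 10 bins, as they did in 21.2% of bins in the genome. Both mTEClo values were higher in 3 of 10 bins, against 18.2% in the genome. The counts of such bins are thus near the background. The widest ratio was at the sixth bin (chr17:36100000-36600000), with H2-T3, Trim39 and several H2-M genes. It held 31 and 21 peaks in mTEClo and 9 and 14 in mTEChi, a ratio of 2.26 as a share of the list. Among the higher-scoring part of each list this ratio was 1.17. The last 2 bins, with 18 and 7 olfactory receptor genes, held between 2 and 6 peaks each.

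Genes count as called by a library if any summit falls 5 kb or less from either gene end. Of the 222 MHC genes, 97 (43.7%) were called in all 4 libraries, against 36% of all protein-coding genes. Both mTEClo libraries called 117 (background 51.3%) and both mTEChi libraries 121 (background 48.1%). Only mTEClo called 6 genes (2.70%, background 3.53%) and only mTEChi 7 (3.15%, background 2.23%). No library called 42 genes (18.9%, background 14.5%), and 31 of those were olfactory receptors. Neighbouring genes often share a peak: the 97 genes rested on 65, 68, 65 and 68 distinct best peaks. Without the olfactory receptors, 97 of 176 genes were called in all 4 libraries and 11 in none.

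The class II genes were called almost throughout: 8 of 9 (88.9%) in all 4 libraries. This compares with 36% of all protein-coding genes and 55.1% of MHC genes other than olfactory receptors. Of the 4 classical genes, H2-Ab1, H2-Aa and H2-Eb1 were called in every library. H2-Eb2 was called in 3, with scores of 8.0 in mTEClo replicate 1, 15.3 in mTEChi replicate 1 and 11.8 in mTEChi replicate 2, and none within 5 kb of an end in mTEClo replicate 2, where 1 summit lay deeper inside the gene. With gene bodies counted, all 4 classical genes were called in every library. H2-Ab1, the beta chain of I-A, had a shared region 34 bp from a gene end (chr17:34263039-34263354; scores 22.97, 14.8, 25.4 and 6.51), another 1494 bp away (chr17:34261571-34261884; 15.8, 13.6, 30.9 and 16.3) and another 5449 bp away. The H2-Aa promoter region (chr17:34287746-34288070) had scores of 16.03, 11.6, 28.7 and 11.3, ranks 835, 799, 432 and 1096 in the lists. Between H2-Aa and H2-Eb1, 8385 bp from H2-Aa, lay the shared region that came second in the MHC by its worst rank (chr17:34296027-34296381), outside any protein-coding gene interval. Its scores were 31.0, 21.2, 33.3 and 22.6, ranks 75, 100, 289 and 216. H2-Eb1, the beta chain of I-E, had shared regions 69, 922 and 4583 bp from a gene end.

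All 5 genes of the H2-DM and H2-DO molecules were called in every library, against 36% of all protein-coding genes. With 1 kb in place of 5 kb, 3 of the 5 were, and 3 were in the higher-scoring part of each list. The strongest of their regions lay inside H2-DMa (chr17:34135368-34135693), with scores of 25.3, 15.9, 45.7 and 14.0. The H2-DMb2 region had 21.4, 9.65, 26.3 and 23.6, and the H2-DMb1 region 15.7, 8.37, 10.7 and 11.3. H2-DM peaks were thus within the top 5% of every list. H2-Oa and H2-Ob encode H2-DO, which holds H2-DM back. Best scores were 8.0, 7.02, 16.8 and 3.34 at H2-Ob and 3.60, 3.03, 2.38 and 5.43 at H2-Oa, lower than at H2-DMa in every library.

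The 5 genes that supply peptides to class I were all called in 4 of 4 libraries, against 36% of all protein-coding genes. With 1 kb in place of 5 kb, 3 of the 5 were. Tap1 and Psmb9, the first subunit of the peptide transporter and an immunoproteasome subunit, are divergent neighbours and shared a region at chr17:34187378-34187728. Its summits lay within their promoter windows in all 4 libraries, with scores of 6.37, 16.9, 8.75 and 6.82 (ranks 13412, 208, 4766 and 3833). Psmb8, another immunoproteasome subunit, had a shared region 442 to 514 bp before its start, with scores of 11.3, 12.6, 9.71 and 5.72 (ranks 2563, 573, 3783 and 7432). Both regions ranked best in mTEClo replicate 2. The states overlapped at the first region. At Psmb8 both mTEClo lists ranked the region higher, at 2.85% and 0.826% of the list against 5.15% and 8.71% in mTEChi. Near Tap2, the other transporter subunit, the shared region lay 2586 bp from the gene (chr17:34218686-34219057; 11.3, 9.0, 22.5 and 13.6). Tapbp, which encodes the loading chaperone tapasin, was called through a peak near Zbtb22, 3463 to 3511 bp before its start.

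Among class I genes, both classical ones were called in every library. The H2-D1 summits lay 119, 113, 134 and 227 bp before its start, with scores of 9.0, 6.0, 13.2 and 6.34. H2-K1 had a shared region at its start, with scores of 7.39, 3.48, 9.71 and 9.03; mTEClo replicate 2 ranked it lowest, at 57.8% of its list. Of 10 H2-Q and H2-T genes, H2-T22 (18.1, 10.99, 17.6 and 4.88) and H2-T24 were called in all 4 libraries, and H2-Q4, H2-Q6, H2-Q7 and H2-Q10 in none. That is 20% in all 4 and 40% in none, against 36% and 14.5% of all protein-coding genes. Of 12 H2-M genes, H2-M2 alone was called in all 4; its promoter region had scores of 14.2, 13.1, 15.8 and 9.89. The H2-M group also had 3 of the 7 genes called only in mTEChi. H2-M3, which presents N-formylated peptides, had the strongest, 25 and 38 bp before its start, with scores of 11.7 and 6.47 (ranks 2678 and 4947). H2-M10.2 (4.08 and 2.88) and H2-M5 (2.77 and 4.34) had low scores, at different places in the 2 libraries. Deeper inside the H2-M5 gene body, mTEClo replicate 2 had 1 summit, so H2-M5 did not lack peaks in that library. Many H2-Q, H2-T and H2-M genes, H2-DMb1 and H2-DMb2, Hspa1a and Hspa1b, and C4b have near-identical copies, so their peaks, or lack of peaks, are less certain.

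**Figure D4:**
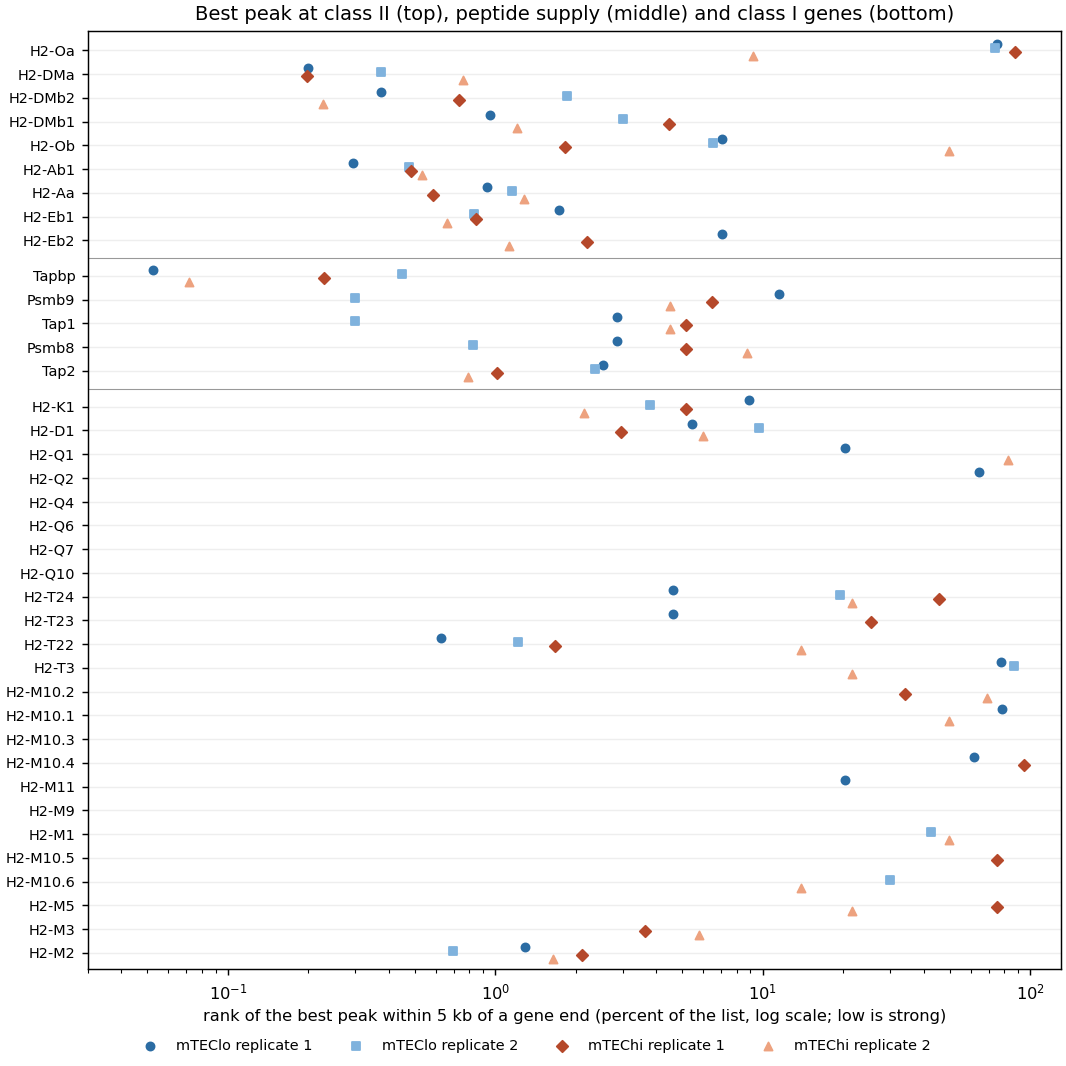
For each class II gene (top), class I peptide supply gene (middle) and class I gene (bottom), the horizontal axis gives the rank of its best peak within 5 kb of a gene end, as percent of the list on a log scale, where low is strong; missing points mean no summit. Class II peaks other than H2-Oa and H2-Ob lie below 8%, while H2-Q4, H2-Q6, H2-Q7 and H2-Q10 have none.

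Elsewhere in the MHC, the strongest region in every library lay between Rnf5, a ubiquitin ligase of the endoplasmic reticulum, and Agpat1, an enzyme of phospholipid synthesis (chr17:34603694-34604040). Its scores were 44.8, 33.2, 106 and 51.0, ranks 20, 24, 7 and 17 of the lists, and its summits lay 305 to 351 bp before the Agpat1 start. The Zbtb22 promoter region (chr17:33915817-33916165; a gene for a zinc-finger protein) had 37.0, 15.1, 42.2 and 33.4, and lay also within 5 kb of Daxx, a histone H3.3 chaperone gene. Neu1, a lysosomal sialidase gene, had 13.7, 9.45, 15.3 and 15.96. At the Mdc1 promoter, a DNA damage checkpoint gene, scores were 30.8, 4.54, 37.2 and 32.3, ranks 78, 20581, 226 and 68, so mTEClo replicate 2 stood apart. Kifc1, a kinesin gene, had 22.3, 6.57, 18.9 and 17.6, and again ranked lowest in mTEClo replicate 2, at 4808. Rps18, a ribosomal protein gene, and its divergent neighbour Vps52 shared a peak with 6.21, 8.37, 24.1 and 7.36.

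Against 36% of all protein-coding genes and 55.1% of MHC genes other than olfactory receptors, calls in all 4 libraries numbered 10 of 15 (66.7%) chromatin and transcription genes, 16 of 21 (76.2%) other class III genes, 16 of 21 (76.2%) class I framework genes and 9 of 13 (69.2%) extended class II genes. They numbered 7 of 8 (87.5%) in the TNF block, 3 of 3 Hsp70 genes, 5 of 9 (55.6%) in the complement module, 2 of 6 (33.3%) TRIM genes and 0 of 46 olfactory receptor genes. With 1 kb in place of 5 kb, the TNF block and the complement module each fell to 0 and the Hsp70 genes stayed at 3. Among the 10000 highest peaks of each list, all of these 3 lists had 0. At Tnf itself the best summits scored 5.25, 6.57, 5.07 and 3.53; the mTEClo summits, at 35199111 and 35199090, lay close together, and the mTEChi summits, at 35195511 and 35204715, lay elsewhere. Brd2, a bromodomain gene, likewise had its best summits scattered over both ends. A gene call in all 4 libraries therefore does not mean 1 shared peak. Outside the MHC window, 4 of 1064 olfactory receptor genes were called in all 4 libraries and 514 in none. C4b, of the complement cascade, Nelfe, of the NELF complex, and Col11a2, a collagen gene, were called only in mTEClo. Their scores were 3.17 and 3.94, 3.55 and 3.32, and 7.54 and 4.42, again at different places in the 2 libraries. Deeper inside the gene bodies, mTEChi replicate 2 had 2 summits in Col11a2 and 1 in C4b, so these genes did not lack peaks in that library.

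Regions that both libraries of a state had and both of the other lacked were 18 for mTEClo (2.81%, background 2.75%) and 14 for mTEChi (2.19%, background 1.83%), close to the background. Of the 14 mTEChi regions, 8 were within 1 kb of a gene end, as were 5 of the 18 mTEClo regions. The best-ranked mTEChi regions lay 509 bp from BC051142 (chr17:34398108-34398411; 14.7 and 7.69) and at the H2-M3 start (chr17:37270046-37270359). Next came a region 14367 bp from Vps52 (chr17:33981255-33981572; 11.6 and 5.43), then regions inside H2-Eb2, Msh5 and Ddah2 with scores of 3.62 to 5.49. The best-ranked mTEClo region lay 1452 bp from Psmb9 (chr17:34180428-34180737; 6.79 and 4.93). It was followed by regions near or in Rab11b, Clic1, Tap1, Prrc2a and Daxx, with scores of 4.10 to 6.63.

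At the top of the lists the states stood further apart. Among the 10000 highest peaks of each list, the MHC held 68, 56, 84 and 77, and the states did not overlap. The means were 62 ± 8.49 for mTEClo and 80.5 ± 4.95 for mTEChi, a difference of 18.5 peaks (SD, n = 2 each; two-sided exact permutation test, p = 0.333, the smallest possible). The MHC ranked first of 18 windows in each library, level with 1 other window in both mTEClo libraries. Among the 17 other windows, mTEChi was higher without overlap in 1 and mTEClo in 4, and the differences of means ran from −9.5 to 6 peaks. Ties limit this count, since peaks that shared the lowest score kept were drawn with a fixed seed: 1 of 19, 299 of 3529, 786 of 1431 and 2150 of 2709. With no tied peak the MHC held 68, 56, 83 and 71 peaks, and with all of them 68, 64, 84 and 78, so the states did not overlap either way. Of the 140 merged MHC regions among these peaks, 27 (19.3%, background 4.71%) had a peak in all 4 libraries. None was found only in mTEClo (background 3.43%) and 11 only in mTEChi (7.86%, background 3.87%). These 11 lay nearest to Zfp414, BC051142 (2 regions), Fkbpl, Bag6, Aif1, H2-Q1, 2300002M23Rik, Atat1, Trim26 and H2-M3. The Bag6 region rested on a drawn peak of mTEChi replicate 2, and the other 10 on none. In the full lists 5 of the 11 had a peak in all 4 libraries, so at these 5 the states differed in rank, not in presence. Those at Bag6, H2-Q1 and 2300002M23Rik also had a mTEClo replicate 2 peak (3.03, 4.42 and 3.94). The Aif1 region had a mTEClo replicate 1 peak (4.46). Only the regions at H2-M3 and 509 bp from BC051142 had no mTEClo peak. At Trim26, of the TRIM ubiquitin ligase family, the ranks were 33657, 14264, 3025 and 7670, and at Zfp414 they were 24865, 14264, 3025 and 888.

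**Figure D5:**
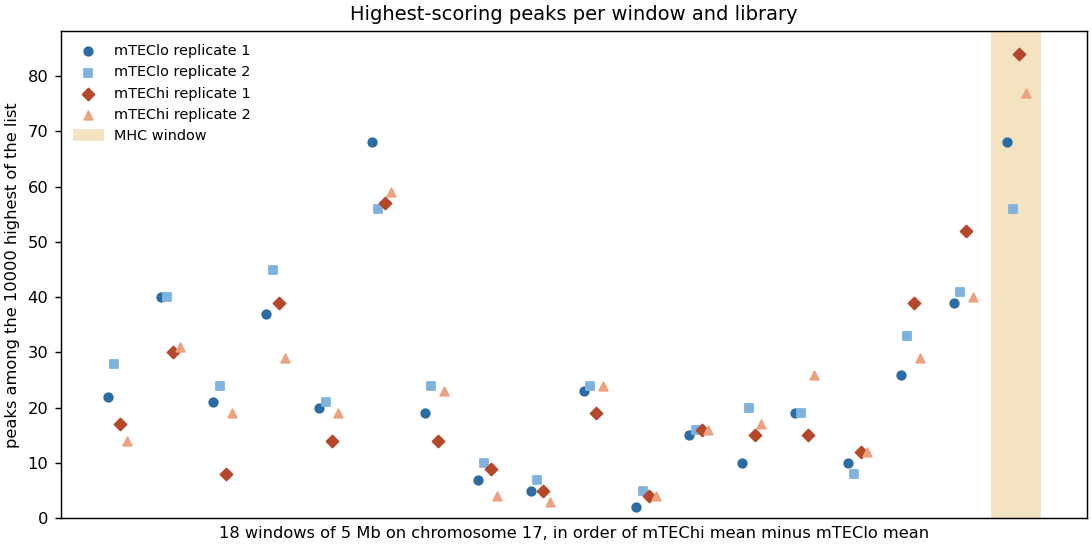
The vertical axis gives the number of the 10000 highest peaks of each library that lie in each of 18 windows of chromosome 17, ordered along the horizontal axis by the mTEChi minus mTEClo difference of means; the MHC window is shaded. It is at the right end, with 68 and 56 peaks in mTEClo and 84 and 77 in mTEChi.

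A promoter window in the RefSeq table was found for 187 of the 222 MHC genes. A summit fell in it in all 4 libraries for 32 genes (17.1%), against 9.21% of 17273 protein-coding genes. No MHC gene had one only in both mTEClo libraries (background 2.12%), and 5 had one only in both mTEChi libraries (2.67%, background 1.64%): Bag6, H2-M3, H2-Oa, Trim15 and Vars2. For H2-Oa and Bag6 this depended on the window's edges. At H2-Oa a mTEClo replicate 2 summit lay 160 bp after the start, outside the window, and the mTEChi replicate 1 peak scored 2.38. The Bag6 region also held a mTEClo replicate 2 peak (3.03). H2-Ab1 and Rnf5 were without an entry.

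The short motifs shown in the sequences above differed in frequency between these promoters and others. With 1 window per gene, 30 MHC promoters had a summit in all 4 libraries, and 27 of them (90%) held CCAAT. Among 1452 promoters of the genome with a summit in all 4 libraries, themselves including the 30, 62.1% held it, as did 39.4% of all 17273 and 40% of 80 MHC promoters with no summit in any library (olfactory receptors left out). TGACG was in 21 of the 30 (70%), against 42.4%, 24.1% and 20% in the same sets. Both occurred together in 18 of the 30 (60%) and in 26.0% of the 1452. GGGCGG went the other way: 10 of the 30 (33.3%) held it, against 73.6% of the 1452 and 46.9% of all. Of the 80 MHC promoters with no summit, 24 (30%) held it, so the low share was not particular to MHC promoters with peaks. Because divergent genes share windows, the 30 are 26 windows without overlap, of which 24 held CCAAT, 17 TGACG and 8 GGGCGG. The median GC content was 56.5% in the 30 and 61% in the 1452.

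Other motifs were rarer. CCGGAAG, an Ets core, was in 20% of the 30 and 24.7% of the 1452 (12% of all 17273). AGNAAC followed within 60 bases by ATTGG, a loose X box and Y box pair that overlaps CCAAT, was in 5 of the 30 (16.7%), against 5.65% of the 1452 and 3.16% of all. An interferon response element, GAAA repeated after a gap of 2 bases, was in 3 of the 30 (10%), against 2.96% and 3.43%. A p53 half-site was in 1 of the 30 (3.33%), against 6.06% of the 1452 and 7.33% of all, and a pair of half-sites without a spacer was in none of the 17273. Distances were taken in each promoter from the median position of the 4 libraries' best summits. The median distance to the nearest CCAAT was 39 bp in the 27 MHC promoters and 28 bp in 902 promoters of the genome. For TGACG it was 57 and 52 bp. A match describes the letters in the window only.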

How the data were processed

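CUT&RUN peaks were compared in 4 libraries, 2 of mTEClo and 2 of mTEChi; groups and replicate numbers came from the sample titles. The submitters' processing notes list the aligner Bowtie2 2.2.9, the peak caller MACS2 2.2.7.1, SAMtools 1.9, Picard and the mm10 build; settings are not stated. The deposited lists hold, for each library separately, intervals of 301 bp (a summit with 150 bp on each side) and a score read as the authors' −log10 p-value or q-value; which of the 2 is not stated. The labels do not tie replicates to separate mice, so each p-value reflects library spread alone, possibly technical. Depth is unknown; Wilson intervals cover counting error only.

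Positions are 1-based on mm10. Genes were 21627 protein-coding entries of a RefSeq table (GRCm38.p6), without exons, so exon, intron and UTR were not assigned. Summits were matched to gene ends, gene lists and RefSeq promoter windows; of 138 listed genes, 134 matched. Other windows were 17 steps of 5 Mb on chromosome 17 from the edges of the MHC window. Bins in the background held at least 10 peaks. Tied scores shared the best rank. Named regions were the 10 in all 4 libraries and 6 per state with the lowest worst rank; named genes were up to 5 per list called in all 4 libraries, up to 4 per list and state called in 1 state only, and 13 fixed genes; printed promoters were the 8 named genes with the lowest worst rank. Other genes and regions named, the segments, the strongest 1% and the motif distances were chosen after values were seen. The members and lists were chosen with earlier results of these data known. Scripts (Python 3.11.15, pandas 2.3.3, scipy 1.17.1) were tested on simulated data. Alternatives were the higher-scoring part of each list, its 10000 highest peaks, lists of equal length, a library left out, summits within 75 bp, moved windows, peaks per gene and other distances.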

Additional observations from a re-analysis of the deposited data

How the results depend on the processing

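The mTEChi minus mTEClo difference in the MHC share of the list turned to 0.0282 percentage points in the higher-scoring part of each list and 0.185 among its 10000 highest peaks (0.274 without peaks tied at the lowest score kept and 0.183 with all of them, added after values were seen); with a library left out it ran from −0.0319 to 0.00427, turning positive without mTEChi replicate 2. The difference in peaks near gene ends ran from −2.96 to 7.25 points, negative without mTEClo replicate 2. Per protein-coding gene, the ratio of the MHC to the median window was 0.217, below 1. In the higher-scoring part, regions found only in mTEClo numbered 9 and only in mTEChi 7, and genes called in both mTEClo libraries 74. Among the 10000 highest, shared regions numbered 27, mTEClo regions 0, genes called in all, both mTEClo and both mTEChi libraries 31, 40 and 55, and promoters 12. Summits within 75 bp gave 11 mTEClo regions. A gene window of 1 kb gave 51, 62 and 71 genes; 25 kb gave 169 in all and 177 in both mTEClo libraries. With a library left out, mTEClo regions numbered 23 to 162 and mTEChi regions 25 to 136, since 1 library then stands for its state. The class II segment kept 12 to 19 shared regions under the settings run. CCAAT was in 76.3% to 100% of MHC promoters with a summit in all libraries, and TGACG in 63.6% to 71.0%; these 2 and the segment were added after values were seen. Between libraries of the same replicate number, deviations from the state mean had r = −0.0629 over 4782 bins, so no pairing was seen in peak counts. Whether such libraries were prepared together is not stated in the labels. With the replicate block the differences were −0.0138 and 2.15. At 2 libraries per state these equal the differences without it by construction, so they do not test the block. Unknown depth and tied low scores limit all counts.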
